A study of Mus musculus with 24 samples.

Results

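The 9 genes described here encode AMPA receptors in the mouse medial prefrontal cortex (mPFC). They are the 4 pore-forming subunits Gria1, Gria2, Gria3 and Gria4 and the auxiliary subunits Cacng2, Cacng3, Cacng8, Cnih2 and Cnih3. They were chosen by symbol from a table of normalized counts, and all 9 were found among its 15456 genes, each in 1 row. AMPA receptors are glutamate-gated cation channels that carry most fast excitatory transmission in the cortex. Each channel is a tetramer of GluA subunits, and auxiliary proteins of the TARP (Cacng) and cornichon (Cnih) families set how the channel gates and how it reaches the synapse. Their number and makeup at the synapse change with activity, and they have been studied in relation to antidepressant treatment.

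RNA was sequenced from the prefrontal cortex of 24 BALB/C mice at postnatal week 11, with 1 library per mouse and 6 mice in each of 4 groups. The control mice received vehicle according to the study's methods and are labelled as untreated in the deposit. The other groups received duloxetine by daily intraperitoneal injection, *Ruminococcus flavefaciens* by repeated gavage, or both. Duloxetine is an antidepressant of the serotonin and norepinephrine reuptake inhibitor class, and *R. flavefaciens* is an anaerobic gut bacterium. All mice were of 1 inbred strain and, according to the methods, male, and the tissue was a needle punch of a brain slice. The study's discussion names the lack of a stress protocol as a limit, and its results name the daily injections as a source of some stress. The reads counted on genes ranged from 12811413 to 15607343 per mouse, and the group medians were 13591497 (control), 14536037 (duloxetine), 13943370 (*R. flavefaciens*) and 14621656 (both). A normalized count is the number of reads on a gene divided by 1 size factor per mouse. The libraries came from bulk tissue, so that fewer cells of a type and less RNA per cell cannot be told apart. Slc17a7, the vesicular glutamate transporter of cortical excitatory neurons, averaged 25094 normalized counts, and markers of oligodendrocytes, astrocytes, microglia and blood vessels were also present.

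The sequence by which the subunits are best told apart in function lies in the re-entrant pore loop. There a glutamine codon, the Q/R site, is turned into an arginine codon in almost all Gria2 mRNA by the adenosine deaminase Adarb1, which makes channels with GluA2 nearly impermeable to calcium. The 63 coding bases around this codon are printed here 5′ to 3′ on the coding strand, with the codon in capitals, since they are the stretch that every pore-forming subunit shares and that separates Gria2 from the others by editing.
Gria1: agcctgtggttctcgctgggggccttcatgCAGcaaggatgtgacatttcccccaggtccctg
Gria2: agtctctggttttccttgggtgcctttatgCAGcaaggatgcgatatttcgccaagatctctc
Gria3: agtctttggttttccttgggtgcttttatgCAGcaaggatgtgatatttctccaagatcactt
Gria4: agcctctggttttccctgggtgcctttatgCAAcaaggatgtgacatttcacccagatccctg
The codon is CAG in Gria1, Gria2 and Gria3 and CAA in Gria4. It lies in exon 11 of each transcript read, as residue 600, 607, 612 and 608 of Gria1, Gria2, Gria3 and Gria4. In GRCm38 the codon is at chr11:57243094-57243096 on the plus strand in Gria1, chr3:80706911-80706913 on the minus strand in Gria2, chrX:41610265-41610267 on the plus strand in Gria3 and chr9:4464137-4464139 on the minus strand in Gria4. Each window continues into the next exon. Over the 63 bases Gria2 was identical to Gria3 at 57, to Gria4 at 54 and to Gria1 at 49. The counts are summed per gene, so the edited share of Gria2 mRNA was not analysed here.

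All 9 genes were well expressed. Gria2 had the highest mean of the 9, with 10123 normalized counts over 24 mice, above 99.0% of all genes in the table. Cacng8 had the lowest, with 1086, still above 80.7% of the genes. Since long transcripts collect more reads, levels were compared between genes only per kb of the longest annotated transcript. On that scale Cnih2, which encodes a cornichon that slows AMPA receptor gating, came first with 1718 ± 165 normalized counts per kb (SD, n = 24). Gria2 followed with 976 ± 47.1, Gria1 with 955 ± 65.4 and Gria3 with 896 ± 85.2. Cacng3 had 783 ± 84.7, Cacng8 572 ± 57.2, Cnih3 523 ± 52.2, Cacng2 353 ± 28.7 and Gria4 274 ± 21.2. Neighbours that differed by less than the SD of either gene were Gria2 and Gria1, Gria1 and Gria3, and Cacng8 and Cnih3. The order was the same when all annotated exon bases of a gene were used as its length, but it had little room to change. The 2 lengths are equal in Cacng2, Cacng3, Cacng8 and Cnih2 and differ most in Gria4, with 6305 against 5441 bases. Which transcripts the reads came from was not tested. The ends of Cnih2 in the table differ slightly from those in the annotation from which its length was read, while those of the other 8 are the same. Its exons share 14 bases with Yif1a, a gene on the opposite strand.

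**Figure D1:**
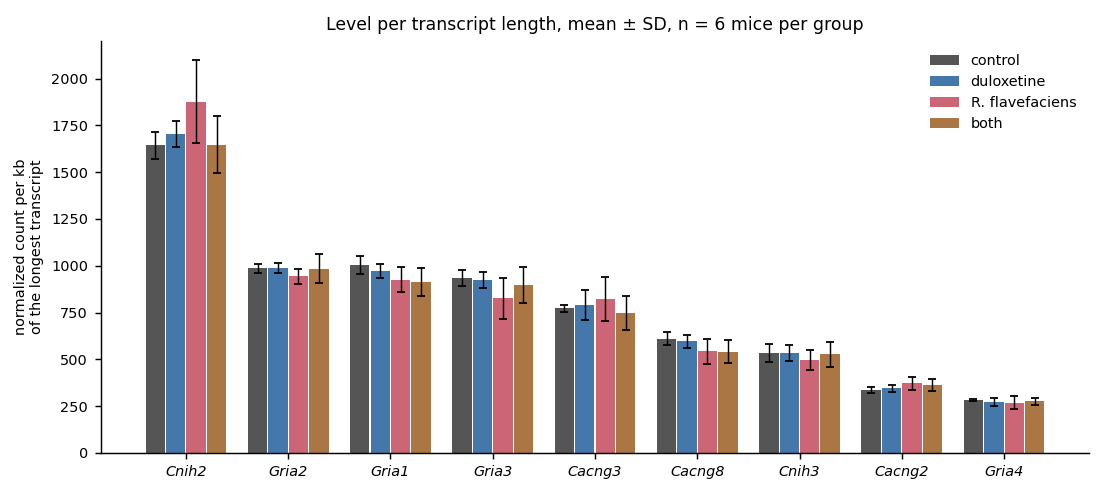
Normalized count per kb of the longest transcript (vertical axis) for each of the 9 genes, in order of level. Bars are the means of 6 mice per group and error bars the SD; Cnih2 stands highest and Gria4 lowest in every group, while Gria1, Gria2 and Gria3 lie close together.

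The share of each subunit in the summed per-kb level of the 4 pore-forming genes was nearly even for 3 of them. This depends on the length used, 10371 bases for the longest transcript of Gria2 and 5192 to 5546 for the other Gria genes. Before division by length, the means over 24 mice were 10123 normalized counts for Gria2, 5295 for Gria1, 4650 for Gria3 and 1490 for Gria4. Whether the longest transcript is the one expressed was not tested. In the control mice Gria1 made up 31.3% ± 1.16 (SD, n = 6), Gria2 30.7% ± 0.241, Gria3 29.2% ± 0.919 and Gria4 8.77% ± 0.282. Gria4, the subunit best known from interneurons and early development, thus had the smallest share. With duloxetine the shares were 30.8% ± 0.325, 31.4% ± 0.396, 29.2% ± 0.353 and 8.58% ± 0.338 in the same order. In the *R. flavefaciens* mice the shares were 31.3% ± 1.32, 31.9% ± 1.36, 27.8% ± 1.68 and 9.03% ± 0.711 in the same order. In the combined group they were 29.8% ± 2.12, 32.1% ± 0.930, 29.1% ± 1.28 and 8.95% ± 0.549. The shares moved by less than 3 percentage points between groups, but their SD was wider in both groups given the bacterium than in the control for each of the 4 subunits.

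The first comparison asked whether the bacterium alone changed these genes. None of the 9 passed an adjusted p-value of 0.05 for *R. flavefaciens* against control in limma (0.0267% of 14974 genes tested did), in DESeq2 (4.86% of the 10039 genes to which it gave an adjusted p) or in edgeR (0.0267% of all 14974). At an unadjusted limma p under 0.05 there were 5 of 9, where 19.6% of all genes had such a p. Of these, 3 were lower (Gria1, Gria3 and Cacng8; 10.8% of all genes) and 2 were higher (Cacng2 and Cnih2; 8.86% of all genes). The median log2 fold change was -0.08 over the 9 genes and 0.00 over all genes. No gene of the 9 had all values of the *R. flavefaciens* mice on 1 side of the control range, which 1.62% of all genes had.

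Among the pore-forming subunits, Gria1 encodes GluA1, the subunit whose phosphorylation and synaptic insertion are best known from long-term potentiation. It had 5213, 5611 and 5831 normalized counts as the lowest, median and highest of 6 control mice. The corresponding values were 5143, 5429 and 5669 with duloxetine, 4640, 5126 and 5610 with *R. flavefaciens*, and 4503, 5023 and 5685 with both. Most mice given the bacterium lay in the lower part of the control range or under it, and the groups overlapped. The log2 fold change was -0.12 ± 0.05 (SE) for *R. flavefaciens* and -0.14 ± 0.05 for both treatments, with limma adjusted p-values of 0.203 and 0.2.

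Gria2 encodes GluA2, the subunit that makes the channel impermeable to calcium. It ran from 10012 through a median of 10194 to 10682 in the control, from 9951 through 10261 to 10660 with duloxetine, from 9369 through 9747 to 10435 with *R. flavefaciens* and from 9064 through 10367 to 11283 with both. It was the steadiest of the 9 genes between mice, with a highest value 1.24 times the lowest. Its log2 fold change for *R. flavefaciens* was -0.07 ± 0.04 (limma adjusted p = 0.434), and it turned to 0.10 when the trend of each library on transcript length was removed (adjusted p = 0.51).

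Gria3 encodes GluA3, which pairs with GluA2 in a large part of cortical receptors. Its lowest, median and highest values were 4529, 4818 and 5164 in the control, 4569, 4754 and 5150 with duloxetine, 3586, 4455 and 4967 with *R. flavefaciens* and 3889, 4706 and 5253 with both. The low end in the *R. flavefaciens* group came from mice 9_3 and 8_4, with 3586 and 3624, while the other 4 mice lay between 4347 and 4967. The log2 fold change was -0.19 ± 0.07 for *R. flavefaciens* (limma adjusted p = 0.152) and -0.07 ± 0.07 for both treatments (0.638). Without mouse 12_2, the lowest of the combined group, the value for both treatments was -0.02.

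Gria4 ran from 1485 through 1543 to 1569 in the control, from 1307 through 1499 to 1581 with duloxetine, from 1175 through 1491 to 1669 with *R. flavefaciens* and from 1384 through 1464 to 1619 with both. Its control mice lay close together, and each treated group reached under and over them. The log2 fold changes against control were -0.08 ± 0.07, -0.06 ± 0.07 and -0.04 ± 0.07 for *R. flavefaciens*, duloxetine and both. For *R. flavefaciens* it was -0.02 without mouse 9_3, the lowest of its group, and -0.12 without mouse 9_1.

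**Figure D2:**
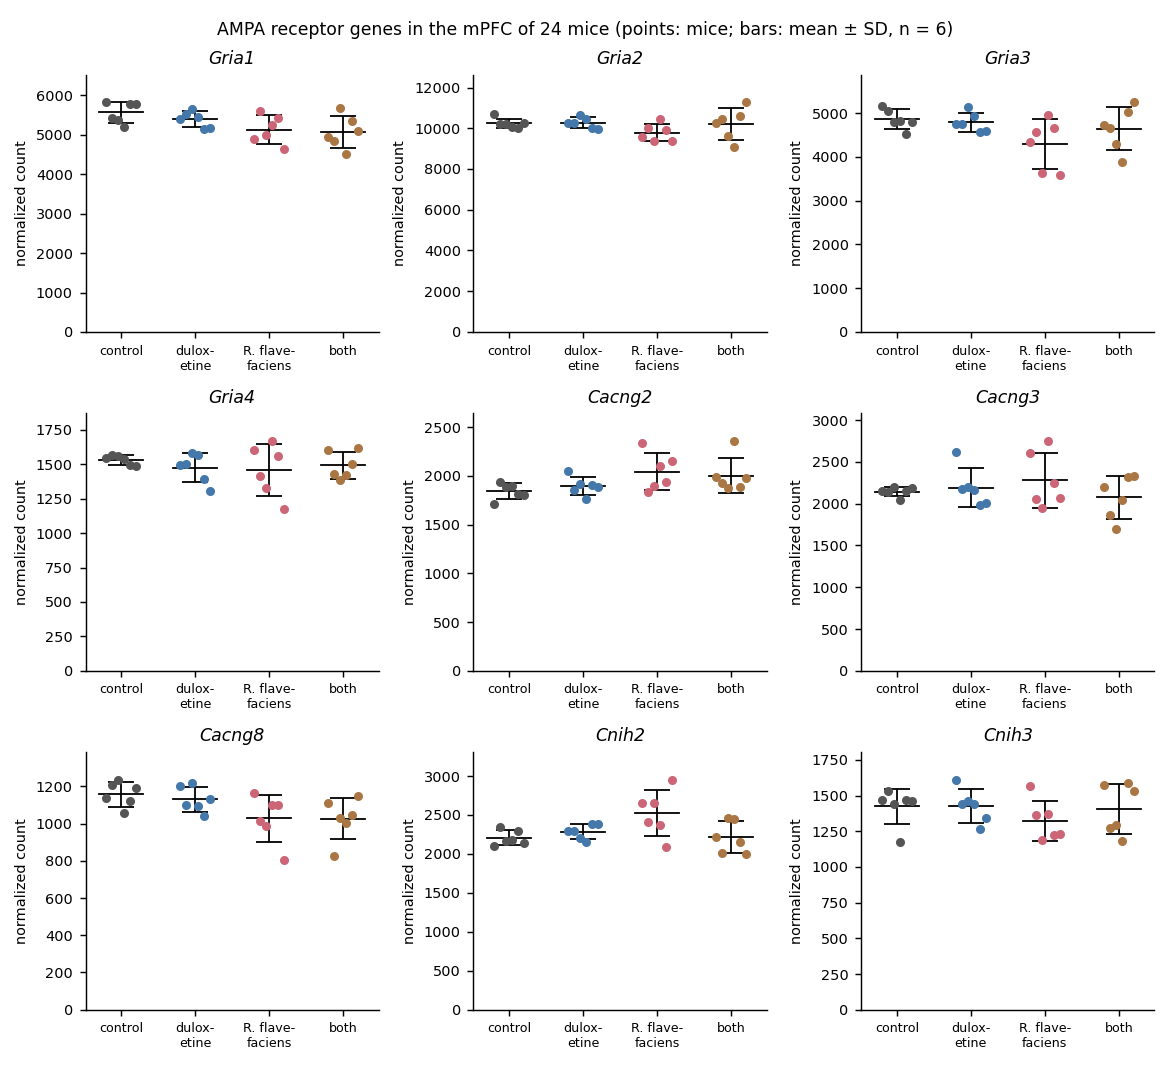
Normalized count (vertical axes, from 0) of each of the 9 genes in each mouse, by group. Points are mice, horizontal lines the mean and bars the SD of 6 mice; the groups overlap for every gene, and the 2 groups given the bacterium are spread more widely than the control for every gene.

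The TARPs bind the channel, carry it to the membrane and anchor it at the postsynaptic density. Cacng2 encodes stargazin, the first TARP described. It ran from 1708 through 1851 to 1939 in the control, from 1759 through 1894 to 2051 with duloxetine, from 1835 through 2016 to 2335 with *R. flavefaciens* and from 1881 through 1950 to 2359 with both. The values given the bacterium began inside the control range and reached above it. The log2 fold change was 0.15 ± 0.06 for *R. flavefaciens* and 0.12 ± 0.06 for both (limma adjusted p = 0.164 and 0.307). Without mouse 12_2, which had the highest value of the combined group, the log2 fold change for both fell to 0.07. Exons of Cacng2 share 323 bases with A730060N03Rik, a gene on the opposite strand that is also in the table. Whether the counting used strand is not given in the sources used here, and reads in these bases cannot be assigned with certainty.

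Cacng3 encodes TARP gamma-3, which is largely confined to the forebrain. It ran from 2042 through 2152 to 2195 in the control, from 1988 through 2170 to 2624 with duloxetine, from 1948 through 2158 to 2750 with *R. flavefaciens* and from 1696 through 2125 to 2332 with both. The medians were close, and the treated groups extended both under and over the narrow control range. Cacng3 had the widest spread of the 9, with a highest mouse 1.62 times the lowest, and its log2 fold changes were 0.08 ± 0.08 for *R. flavefaciens* and -0.05 ± 0.08 for both. They ranged from 0.02 without mouse 9_1 to 0.12 without mouse 8_4 for *R. flavefaciens*, and the value for both was 0.00 without mouse 11_4.

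Cacng8 encodes TARP gamma-8, the TARP best known from hippocampal and cortical pyramidal cells. It ran from 1055 through 1165 to 1235 in the control, from 1039 through 1116 to 1216 with duloxetine, from 806 through 1055 to 1165 with *R. flavefaciens* and from 826 through 1036 to 1147 with both. In each group given the bacterium the lowest mouse lay well under the other 5. The log2 fold change was -0.18 ± 0.08 in both comparisons with control, with a limma adjusted p of 0.187 for *R. flavefaciens* and 0.238 for both treatments. Without mouse 11_3, the lowest of the combined group, the value for both treatments was -0.12.

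The cornichons bind AMPA receptors on their way out of the endoplasmic reticulum and stay with them at the surface. Cnih2 ran from 2107 through 2173 to 2347 in the control, from 2152 through 2298 to 2384 with duloxetine, from 2091 through 2530 to 2951 with *R. flavefaciens* and from 1995 through 2185 to 2463 with both. In the *R. flavefaciens* group 5 of 6 mice were above every control mouse, and mouse 9_2 was below them all. The log2 fold change was 0.19 ± 0.06 for *R. flavefaciens* (limma adjusted p = 0.122) and 0.00 ± 0.06 for both treatments. Without mouse 9_2 it was 0.24 for *R. flavefaciens*, with a limma adjusted p of 0.0342, the only 1 of 34 alternatives under 0.05. Without mouse 9_3 it was 0.14 (limma adjusted p = 0.377), and with the trend on transcript length removed it was 0.09.

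Cnih3 ran from 1177 through 1463 to 1532 in the control, from 1264 through 1440 to 1610 with duloxetine, from 1190 through 1297 to 1567 with *R. flavefaciens* and from 1182 through 1413 to 1590 with both. The groups covered nearly the same range. Its log2 fold change was -0.11 ± 0.08 for *R. flavefaciens* and -0.02 ± 0.08 for both. Without control mouse 2_3 it was -0.16 for *R. flavefaciens*.

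The second comparison asked whether duloxetine alone changed the genes. The log2 fold changes of the 9 ranged from -0.06 to 0.05, with a median of 0.00, and the standard errors ranged from 0.05 to 0.08. No member passed the adjusted threshold in limma, and 0% of all genes did. None had an unadjusted p under 0.05, against 3.83% of all genes, and DESeq2 and edgeR called none of the 9. No member had all values on 1 side of the control range (0.334% of all genes did).

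For both treatments against control, none of the 9 passed the adjusted threshold in limma (0.1% of all genes), DESeq2 (1.68% of the 12941 with an adjusted p) or edgeR (0.114% of all). At an unadjusted limma p under 0.05 there were 2 of 9, against 16.8% of all genes. Both, Gria1 and Cacng8, were lower, which 8.73% of all genes were at that p, and none of the 9 was higher, which 8.08% were. With quantile normalization Gria1 was at -0.07 and Cacng8 at -0.14, and neither was under that p. Cacng2 was higher at such a p under 6 of 10 other settings, DESeq2 and edgeR among them, and its adjusted p was then 0.225 or more. The median over the 9 was -0.04 and the 7 negative values included all 4 pore-forming subunits. Without control mouse 2_2 or mouse 12_2 of the combined group the count was 1, and without mouse 2_1, 7_2, 8_3, 11_4 or 12_3 it was 3. No member's groups were apart, against 2.04% of all genes. The comparisons of either bacterial group with control share the same 6 control mice.

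Adding the bacterium to duloxetine gave log2 fold changes from -0.14, for Cacng8, to 0.08, for Cacng2. None passed the adjusted threshold (0% of all genes) and none had an unadjusted p under 0.05 (5.9%). DESeq2 and edgeR called none, and no member's groups were apart (0.254%). When *R. flavefaciens* was averaged over both duloxetine states, 12 mice against 12, the log2 fold change was -0.11 ± 0.04 for Gria1, -0.12 ± 0.05 for Gria3, 0.11 ± 0.04 for Cacng2 and -0.16 ± 0.05 for Cacng8. These 4 had an unadjusted limma p under 0.05, against 18.1% of all genes. With quantile normalization Gria1 was at -0.05 and Gria3 at -0.07, no longer under that p, and Cacng2 and Cacng8 were at 0.14 and -0.14. For the 3 lower genes the background was 10.4% and for the 1 higher gene 7.68%. None of the 9 passed the adjusted threshold in limma (0.0267% of all genes), in DESeq2 (6.73% of the 6555 with an adjusted p) or in edgeR (0.0267% of all). The lowest adjusted p-value was that of Cacng8, with 0.129 in limma, 0.0581 in DESeq2 and 0.134 in edgeR.

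Adding duloxetine to the bacterium left 1 of the 9 genes with an unadjusted limma p under 0.05, against 19.7% of all genes. That gene was Cnih2. With both treatments its log2 fold change against *R. flavefaciens* alone was -0.19 ± 0.06, with a limma adjusted p of 0.114, a DESeq2 adjusted p of 0.0849 and an edgeR adjusted p of 0.12. No member was called by limma (2.23% of all genes), DESeq2 (4.52% of the 13812 with an adjusted p) or edgeR (2.18% of all), and no member's groups were apart (1.44%). Without *R. flavefaciens* mouse 9_2 the value was -0.24 with a limma adjusted p of 0.0381, the only 1 of 34 alternatives under 0.05. It was -0.14 without mouse 9_3 (limma adjusted p = 0.247) and -0.16 with the trend on transcript length removed. The count at an unadjusted p under 0.05 was 2 without mouse 8_4 or 9_1 and 3 without mouse 12_2. In the test of the interaction, which asks whether the effect of the bacterium differed with and without duloxetine, Cnih2 had -0.24 ± 0.09 (unadjusted p = 0.0147, adjusted p = 0.639 in limma). The interaction value of Cnih2 was -0.17 with the trend on transcript length removed and -0.19 without mouse 9_3. Cnih2 was again the 1 of 9 with an unadjusted p under 0.05, against 7.53% of all genes, and 0% of all genes passed after adjustment. For duloxetine averaged over the bacterium, the 9 values ranged from -0.07 to 0.05. None of the 9 was called there (1.03% of all genes) or had an unadjusted p under 0.05 (14.9%), and DESeq2 and edgeR called none of the 9 in the interaction or in this comparison.

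**Figure D3:**
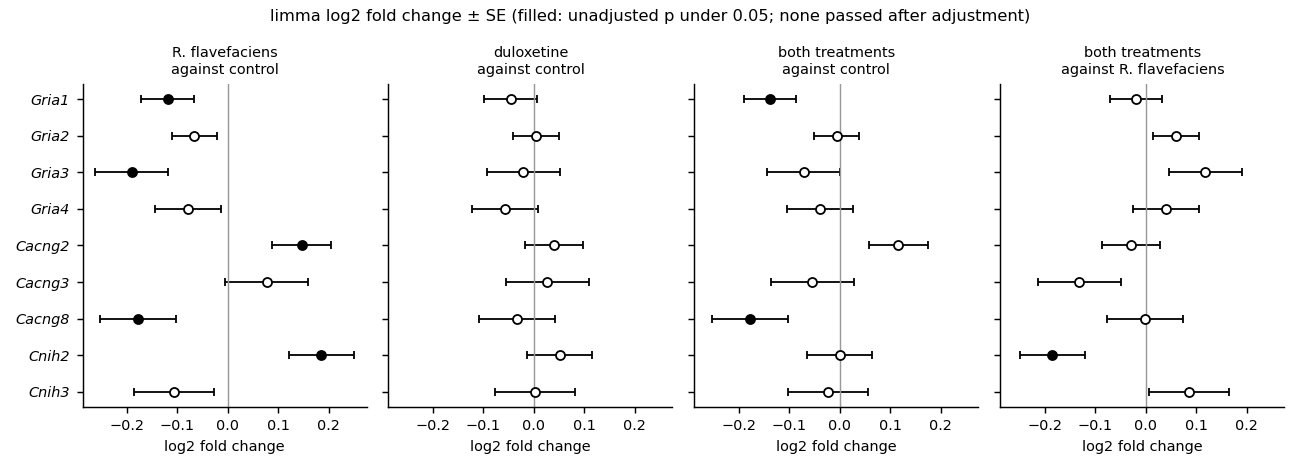
limma log2 fold change (horizontal axes) of the 9 genes in 4 comparisons, with standard errors as bars. Filled points have an unadjusted p under 0.05, 5 of 9 for R. flavefaciens, 0 for duloxetine, 2 for both treatments against control and 1 for both against R. flavefaciens; no adjusted p was under 0.05.

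The balance of subunit mRNA was compared by the log2 ratio of Gria1, Gria3 or Gria4 to Gria2 within each mouse. These are ratios of normalized counts from bulk tissue, not divided by transcript length, and the makeup of the receptor protein was not measured. The ratio of Gria1 to Gria2 was -0.88 ± 0.06 in the control, -0.93 ± 0.02 with duloxetine, -0.93 ± 0.07 with *R. flavefaciens* and -1.01 ± 0.14 with both treatments (SD, n = 6). It was below the control mean in 6 of 6 mice given duloxetine, 4 of 6 given *R. flavefaciens* and 5 of 6 given both. The differences from control were -0.05 (two-sided exact permutation test, p = 0.0866), -0.05 (exact p = 0.19) and -0.13 (exact p = 0.0584). The ratio of Gria3 to Gria2 was -1.07 ± 0.05 in the control, -1.10 ± 0.03 with duloxetine, -1.20 ± 0.14 with *R. flavefaciens* and -1.14 ± 0.05 with both, and its difference from control was -0.02 (exact p = 0.294), -0.12 (exact p = 0.0606) and -0.07 (exact p = 0.0455). Over the 15 tests of 3 ratios and 5 comparisons, the lowest adjusted p was 0.292, where the smallest p the design allows is 0.00216 before adjustment. The ratios were not computed with the trend of each library on transcript length removed. With it removed, the log2 fold changes for *R. flavefaciens* against control were -0.05 for Gria1, 0.10 for Gria2 and -0.13 for Gria3. Before removal they were -0.12, -0.07 and -0.19. Without mouse 11_4 of the combined group, the ratio of Gria1 to Gria2 differed from control by -0.18, with an adjusted p of 0.0325. That was the only 1 of 13 alternatives under 0.05, and the adjusted p reached 0.385 in the others. Without mouse 12_4 the difference was -0.105. In mouse 11_4 the striatal markers described below summed to 2747.8, against 1216.5 to 1597.1 in the rest of its group. Mouse 8_4, given the bacterium alone, had a sum of 4719.9 and a ratio of -0.91, near its group mean of -0.93. A link between these markers and the ratio was not tested.

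Libraries differed in how the level of a gene depended on the length of its transcript, and this moved with some of the results above. The slope of the log2 difference from the control mean, per doubling of transcript length and over all genes with a known length other than the 9, lay between -0.0146 and 0.0102 in the control mice. With *R. flavefaciens* it averaged -0.0755 ± 0.0758 (SD, n = 6), with both treatments -0.0425 ± 0.0217 and with duloxetine -0.0217 ± 0.0233. The steepest slopes were those of mice 9_3 (-0.2113), 7_2 (-0.0995) and 8_4 (-0.085), all given the bacterium alone. A negative slope means that long transcripts were lower against the control mean than short ones. The longest transcript is 10371 bases in Gria2, 5546 in Gria1, 5510 in Cacng2, 5441 in Gria4 and 5192 in Gria3, and 2777 in Cacng3, 2668 in Cnih3, 1897 in Cacng8 and 1343 in Cnih2. Cacng2, with a long transcript, was higher with *R. flavefaciens*, and Cacng8, with a short one, was lower. The part of the trend in the values of single genes was not tested. Mouse 9_3 had the lowest Gria1, Gria2, Gria3, Gria4 and Cacng8 and the highest Cnih2 of its group.

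With the length trend removed, the values for *R. flavefaciens* against control were -0.05 for Gria1, -0.13 for Gria3, -0.02 for Gria4, 0.09 for Cnih2, 0.21 for Cacng2 and -0.23 for Cacng8. Cacng2 and Cacng8 were then the 2 of 9 with an unadjusted p under 0.05, in place of 5. Without mouse 9_3 the values were -0.09 for Gria1, -0.14 for Gria3, -0.11 for Cacng8, 0.13 for Cacng2 and 0.14 for Cnih2, and Cacng2 and Cnih2 were the 2 with such a p. Cacng2 had an unadjusted p under 0.05 in all 3 settings, while its adjusted p was 0.251 with the trend removed and 0.41 without mouse 9_3. The count was 3 without control mouse 1_1, mouse 7_2 or mouse 8_4.

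**Figure D4:**
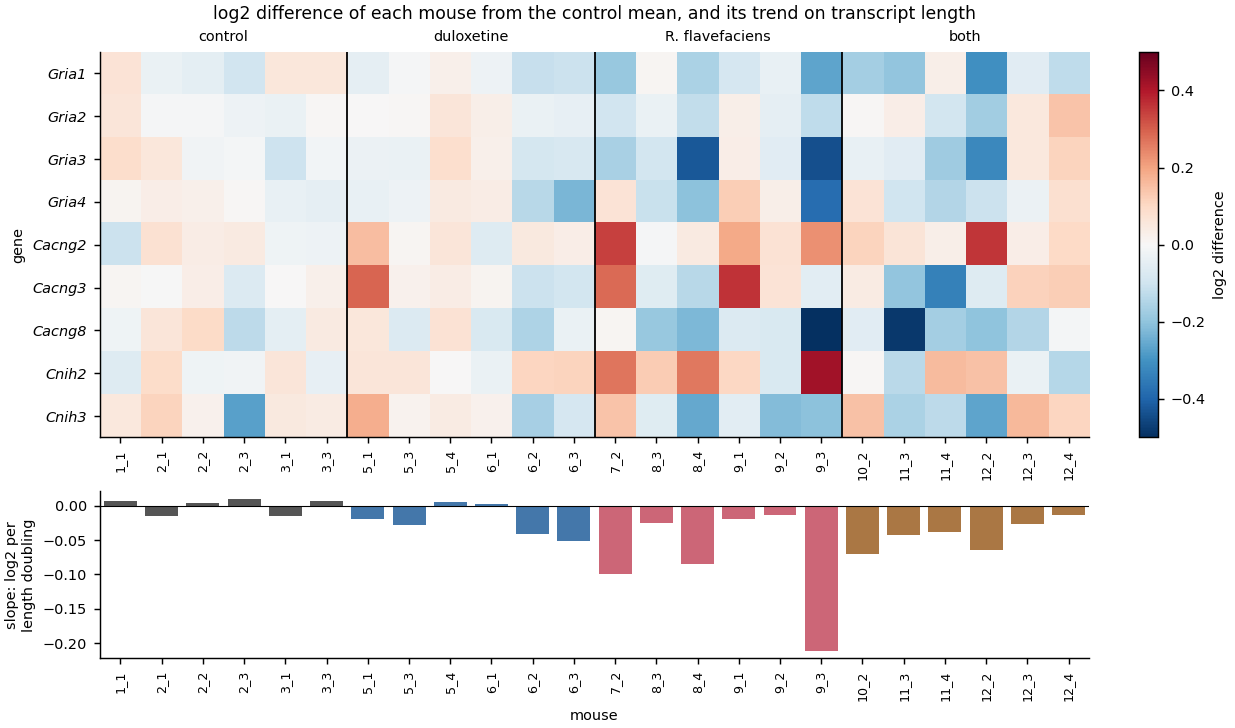
Upper panel, log2 difference of each gene (rows) in each mouse (columns, by group) from the control mean; lower panel, slope of all genes other than the 9 on transcript length in the same mouse (log2 per doubling). Mouse 9_3 of the R. flavefaciens group has the steepest slope, -0.2113, together with low Gria genes and high Cnih2.

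Within groups, many pairs of the 9 genes varied together from mouse to mouse. Correlations were computed over 24 mice after the group means were taken off, for all 36 pairs, with permutation within groups. At an adjusted p under 0.05 there were 14 pairs, 10 positive and 4 negative. The share over pairs of all genes was not computed, and in some of these pairs many other genes had a higher r. By r with Gria3, Gria4 came 512th and Cnih3 2199th of all genes, and by r with Gria2, Gria4 came 1009th. Other pairs ranked near either end of the 14974 genes tested. Gria3 came 1st by r with Gria2, Cnih2 14841st by r with Gria3 and Cacng2 14878th by r with Gria1. Gria2 and Gria3 had a Pearson's r of 0.88 and a Spearman's rho of 0.90, both with a permutation p of 1e-05, the smallest the permutations can give (adjusted p = 0.00036 and 0.00018). Without the 2 mice farthest from the median of Gria2 the r was 0.86. Gria3 and Gria4 had an r of 0.79 and a rho of 0.79 (permutation p = 9e-05 and 0.00015, adjusted 0.00162 and 0.00135) and an r of 0.76 without 2 mice. Gria3 and Cnih2 went in opposite directions, with an r of -0.77 and a rho of -0.76 (permutation p = 0.00061 and 0.00047, adjusted 0.00366 and 0.00242), and -0.67 without 2 mice. Gria1 was positive with Gria2 and Gria3, with an r of 0.46 and 0.52 (adjusted permutation p = 0.156 and 0.0875). Its 1 pair under the threshold was with Cacng2, with an r of -0.69 and a rho of -0.66 (permutation p = 0.00203 and 0.00189, adjusted 0.00936 and 0.0068), and -0.58 without 2 mice.

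With the trend on transcript length removed, which was added after the data were seen, the pairs split. The r of Gria2 and Gria3 became 0.30 (adjusted permutation p = 0.567), that of Gria2 and Cnih2 moved from -0.75 to -0.02 and that of Gria3 and Cnih2 to -0.46. That of Gria1 and Cacng2 moved from -0.69 to -0.48 (adjusted p = 0.0468), and that of Gria3 and Gria4 from 0.79 to 0.76. Cacng3 and Cnih3 were at 0.72 before and 0.77 after, Gria4 and Cacng8 at 0.73 and 0.74, and Gria4 and Cacng3 at 0.71 and 0.82. In all, 11 pairs were under the threshold after the removal, of which 9 had been under it before.

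**Figure D5:**
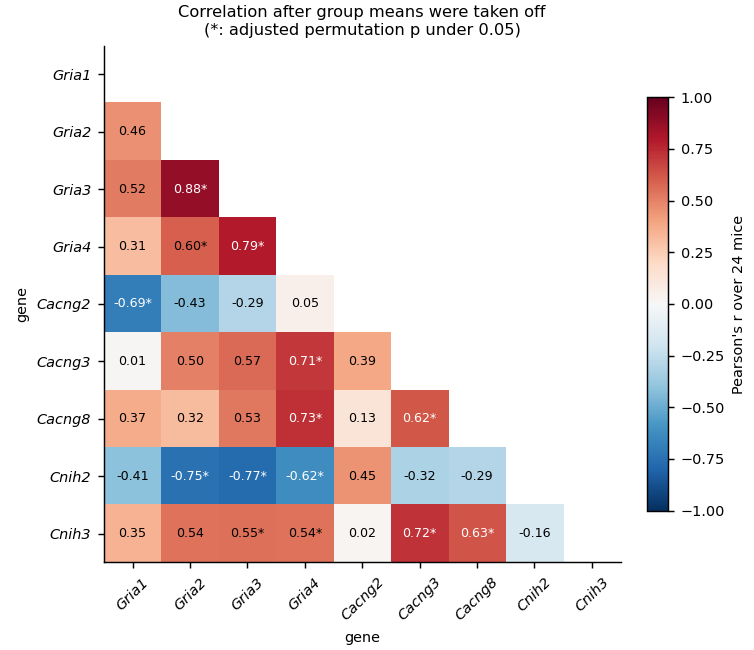
Pearson's r of each pair of the 9 genes over 24 mice after group means were taken off (colour and number; 1 cell per pair). Stars mark the 14 of 36 pairs with an adjusted permutation p under 0.05; Gria2 and Gria3 are highest at 0.88, and Cnih2 is negative with every Gria gene.

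Over all genes, the 3 that most resembled each subunit by r over the same 24 mice are given as a description. They were Cbll1, Acvr2a and Tenm3 for Gria1, with r of 0.90, 0.89 and 0.88. For Gria2 they were Gria3, Kif2a and Abi2, with 0.88, 0.87 and 0.85, and for Gria3 they were Scn2a, Zdhhc21 and Pgm2l1, with 0.95, 0.94 and 0.94. For Gria4 they were Dclk1, Gpr26 and Hdlbp, with 0.94, 0.93 and 0.93. The longest transcripts of these 12 named neighbours ran from 3945 bases in Cbll1 to 11571 in Gpr26, and the points share the libraries and their length trends.

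Other proteins of the receptor complex were read from a list of 23 genes, all tested. For *R. flavefaciens* against control, limma called none, and 1 was higher and 3 were lower at an unadjusted p under 0.05, against 8.86% and 10.8% of all genes. With the bacterium averaged over duloxetine, 1 was higher and 6 were lower at that p, against 7.68% and 10.4% of all genes, and limma, DESeq2 and edgeR called none. The 4 with the smallest p there were Olfm3 (olfactomedin 3, a secreted component of native complexes) at -0.21 ± 0.07, Cacng4 (TARP gamma-4) at 0.15 ± 0.05, Shisa9 (a transmembrane auxiliary subunit) at -0.12 ± 0.05 and Frrs1l (needed for receptor assembly in the endoplasmic reticulum) at -0.15 ± 0.06, with limma adjusted p-values of 0.129, 0.16, 0.169 and 0.172.

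Of 24 trafficking and anchoring genes, limma called none in any of the 8 comparisons. For *R. flavefaciens* against control 6 were lower and 0 higher at an unadjusted p under 0.05, against 10.8% and 8.86% of all genes. Myo5a, a motor that carries AMPA receptors into spines, had 13763, 14170 and 14856 normalized counts as lowest, median and highest in the control and 7817, 12611 and 13741 with *R. flavefaciens*. Every mouse given the bacterium alone was under every control mouse, and 1.62% of all genes had groups apart in this comparison. Its log2 fold change was -0.31 ± 0.09, with an adjusted p of 0.0873 in limma, 0.0451 in DESeq2 and 0.104 in edgeR, and it was -0.12 with the length trend removed. The adjusted p was under 0.05 in 4 of 34 alternatives, namely DESeq2 and limma without mouse 8_3, 9_1 or 9_2, and it reached 0.46 in the other 30. Without mouse 9_3 the log2 fold change was -0.20. Averaged over duloxetine, Myo5a had -0.20 ± 0.06, Nptx1 (a neuronal pentraxin that clusters AMPA receptors) -0.16 ± 0.06, Snx27 (a recycling adaptor) -0.08 ± 0.03 and Dlg1 (the scaffold SAP97) -0.09 ± 0.04, with limma adjusted p-values from 0.128 to 0.247. With the length trend removed Myo5a was at -0.09, Snx27 at -0.03 and Dlg1 at -0.04. The value of Nptx1 was smallest in size with quantile normalization, at -0.115. Nptx1 was at -0.20 with an adjusted p of 0.0415 without mouse 8_3, the 1 alternative in which it was under 0.05. Grip2, a scaffold that binds the tails of GluA2 and GluA3, ran from 275 through 297 to 331 with *R. flavefaciens* and from 314 through 347 to 404 with both treatments, so that the groups overlapped little. Its log2 fold change between them was 0.23 ± 0.06, with an adjusted p of 0.0524 in limma, 0.026 in DESeq2 and 0.0445 in edgeR. The adjusted p was not under 0.05 in 25 of 34 alternatives, with values up to 0.208, and the log2 fold change was lowest with the length trend removed (0.18) and without mouse 11_4 (0.19).

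Among 18 kinases and phosphatases that act on AMPA receptor subunits, limma called 1 gene in 1 comparison, both treatments against *R. flavefaciens*, where it called 2.23% of all genes. Ppp1cc, a catalytic subunit of protein phosphatase 1, ran from 2289 through 2415 to 2505 with *R. flavefaciens* and from 2038 through 2228 to 2279 with both treatments, and all 6 mice of the combined group were under the 6 of the other, which held for 1.44% of all genes in either direction. The log2 fold change was -0.14 ± 0.04, with an adjusted p of 0.0452 in limma, 0.00886 in DESeq2 and 0.0529 in edgeR. The call was lost under 20 of 34 alternatives, such as without mouse 11_3 of the combined group (adjusted p = 0.126), while the sign held in all 34. With the bacterium averaged over duloxetine, 3 of the 18 were lower at an unadjusted p under 0.05, against 10.4% of all genes. Among them were Prkacb, a catalytic subunit of protein kinase A, at -0.11 ± 0.04 and Prkcb, a form of protein kinase C, at -0.13 ± 0.05. Ppp3ca, a calcineurin subunit, was at 0.04 ± 0.03.

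Of the 3 RNA editing enzymes none was called by limma, DESeq2 or edgeR in any comparison. Adarb1, which edits the codon shown in capitals above, had 3077 ± 232 normalized counts in the control, 2935 ± 130 with duloxetine, 2967 ± 346 with *R. flavefaciens* and 3110 ± 203 with both (SD, n = 6). Adar, the other active deaminase, had 2309 ± 97.7, 2148 ± 150, 2019 ± 278 and 2016 ± 165 in the same order, and with the bacterium averaged over duloxetine its log2 fold change was -0.15 ± 0.05 (limma adjusted p = 0.139). Adarb2, which has no known editing activity, was at -0.09 ± 0.05 (adjusted p = 0.342). For *R. flavefaciens* against control, 2 of the 3 were lower and 0 higher at an unadjusted limma p under 0.05, against 10.8% and 8.86% of all genes. These were Adar at -0.205 ± 0.073 and Adarb2 at -0.166 ± 0.073, with limma adjusted p-values of 0.129 and 0.202. In that comparison limma called 0.0267% of all genes.

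Markers of cell types and layers moved in some of the same mice. The 6 excitatory neuron markers summed to 34388 ± 1511 normalized counts in the control and 32700 ± 2521 with *R. flavefaciens* (SD, n = 6), with Slc17a7 the most abundant, and 6 of 6 had a negative log2 fold change, 2 of them at an unadjusted limma p under 0.05. The 7 inhibitory neuron markers, led by Gad1, summed to 10375 ± 478 and 11244 ± 376, with 3 higher at that p. The 4 deep layer markers, led by Bcl11b, summed to 4016 ± 285 and 3366 ± 585, with 3 of 4 lower at that p (10.8% of all genes were lower and 8.86% higher), and the 4 upper layer markers to 5716 ± 202 and 5716 ± 311. The 6 striatal markers reached 4720 in mouse 8_4, against 1113 to 2023 in the other mice of its group, and the oligodendrocyte sum spread widely in every group, from 13868 to 37718 in the control and from 12095 to 45393 with *R. flavefaciens*. The 3 measured markers of choroid plexus and blood, led by Hbb-bs, summed to 261 ± 59.9 and 575 ± 402, with 1384.8 in mouse 8_4 against 324.7 to 517.9 in the other 5 of its group. All 3 were higher at an unadjusted limma p under 0.05. Among them Ttr, the marker of choroid plexus, was at 1.20 ± 1.19 in the control and 126 ± 261 with *R. flavefaciens*. The 5 microglia markers, led by Csf1r, summed to 3229 ± 167 and 3600 ± 258, with 3 higher at that p. For *R. flavefaciens* against control limma and edgeR called none of these marker genes, and DESeq2, which called 4.86% of the genes with an adjusted p, called 1 excitatory, 2 inhibitory and 1 microglia marker. With both treatments the excitatory sum was 32220 ± 2294, the inhibitory sum 10794 ± 672, the deep layer sum 3533 ± 340 and the microglia sum 3724 ± 499, and with duloxetine they were 34105 ± 1011, 10317 ± 362, 3894 ± 518 and 3579 ± 327. At an unadjusted limma p under 0.05, 4 of 5 microglia markers were higher against control with both treatments (8.08% of all genes) and 4 of 5 with duloxetine (3.83% of all genes in either direction). With both treatments 2 of 5 astrocyte markers and all 3 markers of choroid plexus and blood were higher at that p. So were 1 of 7 inhibitory, 1 of 5 endothelial and 1 of 4 upper layer markers. Lower at that p were 2 of 4 deep layer and 1 of 6 excitatory markers, against 8.73% of all genes. The part of all these markers in the values of the 9 AMPA receptor genes was not tested.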

How the data were processed

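RNA-seq of 24 mPFC samples was read from 1 table of the whole series. According to the methods, the authors mapped reads with Tophat2 to GRCm38.p5, and the supplement names DESeq2 for normalization. The submitters' processing notes list TopHat2 2.1.0, Bowtie2 2.2.6, DESeq2 1.18.1 and build mm9, but gene positions in the table are those of GRCm38 (14285 of 15456 genes at the same place in GENCODE M21). The deposited signal values are gene counts after division by a size factor for each mouse. Of 370875 non-zero values, 99.981% were whole multiples of a step per mouse within 0.0051, which returned whole reads. The counting program and strand setting are not given in the sources used here.

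limma 3.58.1 (R 4.3.3) was fitted to log2(value + 1) with a trended prior, and 14974 genes averaging 10 or more normalized counts were tested. Fold changes are on that scale. All 4 groups entered 1 fit with 8 comparisons. Tests were two-sided, with Benjamini-Hochberg adjustment over all genes of a comparison. DESeq2 1.42.0 and edgeR 4.0.16 were run on the recovered reads as alternatives, and all 3 were tested on simulated data with known changes. Ratios were compared by exact permutation tests, and correlations by 100000 permutations within groups. Over 60 pairs of mice of the same group, chi-square divided by its degrees of freedom was 2.11 or more, so no library was treated as a repeat of another. No replicate numbers are shared between groups. Q/R site sequences were read from GENCODE M21 transcripts with Biopython 1.88.

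The 9 genes and the lists were chosen with earlier results of these data known. Beside the 9, genes of the receptor lists were named if past the limma threshold or among the 4 of a list with the smallest p for the bacterium averaged over duloxetine. Grip2 and Myo5a in single comparisons were named after their values were seen. 1 gene that this rule names is not reported here.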

Additional observations from a re-analysis of the deposited data

Results flagged for a closer look

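Within each group of 6 mice, a value was singled out when its gap to the nearest other mouse exceeded Dixon's 95% critical share of the range of the group. Over 36 sets of 6 values there were 4 such values, and chance gives about 1 in 20. Cacng2 in mouse 12_2 of the combined group was at 2359, against 1881 to 1987 in the other 5. Cacng3 in control mouse 2_3 was at 2042, against 2139 to 2195. In the same mouse Cnih3 was at 1177, against 1442 to 1532. Cacng3 in duloxetine mouse 5_1 was at 2624, against 1988 to 2197. Their causes were not tested.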

How the results depend on the processing

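The count of called genes among the 9 stayed at 0 in all 8 comparisons under the alternative settings (10, or 9 for the 2 averaged comparisons and the interaction, where a fit of only the groups compared was not run) and without each of the 24 mice in turn, except without *R. flavefaciens* mouse 9_2, where it was 1 (Cnih2) for *R. flavefaciens* against control and for both treatments against *R. flavefaciens*. These 2 ranges were thus 0 to 1. The count at an unadjusted p under 0.05 moved more. With the length trend removed it went from 5 to 2 for *R. flavefaciens* against control, from 4 to 2 with the bacterium averaged over duloxetine and from 0 to 1 for duloxetine averaged over the bacterium. With quantile normalization it was 1 (Cacng2, higher) in place of 2 for both against control, while 5 other settings gave 3 there, 2 in place of 1 for both against *R. flavefaciens* (also 2 after rescaling to the 75th percentile) and 2 in place of 4 for the bacterium averaged over duloxetine. A fit of only the groups compared gave 1 in place of 0 for both against duloxetine. With each mouse left out the ranges were 2 to 6 for *R. flavefaciens* against control, 1 to 3 for both against control, 0 to 1 for both against duloxetine, 1 to 3 for both against *R. flavefaciens*, 3 to 5 for the bacterium averaged over duloxetine and 0 to 1 for duloxetine averaged over the bacterium. Of 39 single gene and ratio results, 1 reversed, Gria2 for *R. flavefaciens* against control, from -0.07 to 0.10 with the length trend removed, and 31 kept both their direction and their side of the threshold. Each ratio result was run under only 1 other setting, a pseudocount of 0.1, and with 12 mice left out in turn. Adjusted p-values of Cacng8 for the bacterium averaged over duloxetine were not under 0.05 in any alternative. The causes of these moves were not tested. Treating the first number of a mouse's label as a random block, whose estimated correlation was -0.045, changed no call of the 9. The lowest value of the 9 genes in any mouse was 806 normalized counts, and the parts of counting error and of the spread between mice in the errors were not separated.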
